A study of Homo sapiens with 6 samples.

Results

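Interferon-stimulated genes are the genes that cells switch on when interferon binds its receptors, and 41 of them were examined here in MDA-MB-231 cells, a human triple-negative breast cancer cell line, with and without knockdown of the pseudouridine synthase PUS1. The members were chosen by name as well-known interferon targets, with earlier results of these data known. All 41 were found among the 60605 genes of the deposited table. Of these, 35 had enough counts to be tested, among 14748 tested genes. The control group (shControl, 3 libraries) carried a control short hairpin RNA, and the knockdown group (shPUS1, 3 libraries) carried a hairpin against PUS1, labelled knockdown-2 in the table. Both were delivered by lentivirus and selected with puromycin, so all 6 libraries come from transduced, drug-selected cells, and no untransduced cells were part of the comparison. The labels and methods name no interferon added to either group. Poly(A)-selected RNA was sequenced. The labels call the libraries of a group biological replicates, but whether they came from separate transductions is not given in the sources used here, and p-values measure the spread between these libraries. In bulk RNA, a lower level in every cell and fewer cells with a high level cannot be told apart.

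Type I and type III interferons act through receptors whose kinases phosphorylate STAT proteins, and STAT2 acts with IRF9 in the complex ISGF3. ISGF3 binds the interferon-stimulated response element (ISRE) in the promoters of its targets, while interferon gamma acts through the gamma-activated sequence (GAS). The targets include sensors of foreign RNA, proteins that block viral translation or entry, and the pathway's own transducers, and some cancer cell lines express a part of them at a basal level without added interferon.

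The response elements of the members can be read in their promoters, and 7 are shown as examples. They belong to the 3 members that passed the test with all libraries (DDX58, DDX60 and BST2) and to 4 of those that passed without shControl replicate 2, chosen to cover different roles and motifs. The sequences are from RefSeq (GRCh38.p14), run 5′ to 3′ on the strand of the gene and cover the 200 bases before the annotated start. Capitals mark each match to the ISRE core (GAAANNGAAA on either strand, N being any base) or to the GAS (TTCNNNGAA). In 6 of the 7, all but BST2, the deposited gene span begins further upstream than this start.
ISG15: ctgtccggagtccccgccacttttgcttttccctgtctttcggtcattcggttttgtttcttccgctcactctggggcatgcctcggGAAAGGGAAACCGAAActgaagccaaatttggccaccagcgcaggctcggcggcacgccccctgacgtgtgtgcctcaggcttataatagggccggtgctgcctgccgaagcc
IFIT1: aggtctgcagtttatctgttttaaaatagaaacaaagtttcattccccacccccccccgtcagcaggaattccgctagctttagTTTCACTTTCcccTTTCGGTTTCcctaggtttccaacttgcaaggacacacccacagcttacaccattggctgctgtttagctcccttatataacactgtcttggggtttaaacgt
DDX60: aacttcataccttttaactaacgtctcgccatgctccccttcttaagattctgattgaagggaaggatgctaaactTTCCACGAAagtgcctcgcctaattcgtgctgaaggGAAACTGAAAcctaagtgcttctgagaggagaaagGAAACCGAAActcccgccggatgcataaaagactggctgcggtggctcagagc
BST2: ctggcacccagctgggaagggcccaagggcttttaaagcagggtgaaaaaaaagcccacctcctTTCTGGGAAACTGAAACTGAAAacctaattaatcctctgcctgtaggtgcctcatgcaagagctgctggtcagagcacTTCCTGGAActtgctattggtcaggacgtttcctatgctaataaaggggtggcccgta
IFITM1: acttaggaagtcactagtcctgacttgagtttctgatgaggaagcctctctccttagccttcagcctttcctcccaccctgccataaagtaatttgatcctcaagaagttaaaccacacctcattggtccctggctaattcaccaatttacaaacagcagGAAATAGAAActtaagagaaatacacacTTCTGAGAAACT
IRF1: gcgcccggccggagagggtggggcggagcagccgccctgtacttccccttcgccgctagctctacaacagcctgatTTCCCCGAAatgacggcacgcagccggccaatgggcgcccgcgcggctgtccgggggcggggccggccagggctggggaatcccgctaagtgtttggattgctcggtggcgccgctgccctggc
DDX58: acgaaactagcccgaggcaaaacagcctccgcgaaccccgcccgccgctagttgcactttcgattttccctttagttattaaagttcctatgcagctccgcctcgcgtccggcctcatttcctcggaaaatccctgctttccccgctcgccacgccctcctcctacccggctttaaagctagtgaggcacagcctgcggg
These windows lie at chr1:1013297-1013496 (plus strand, ISG15), chr10:89392423-89392622 (plus strand, IFIT1), chr4:168318753-168318952 (minus strand, DDX60), chr19:17405631-17405830 (minus strand, BST2), chr11:313840-314039 (plus strand, IFITM1), chr5:132490774-132490973 (minus strand, IRF1) and chr9:32526197-32526396 (minus strand, DDX58). In the promoters of ISG15 and BST2 a pair of ISRE cores overlap each other, and in that of IFIT1 both matches lie on the opposite strand. BST2 and DDX60 hold both kinds of motif. The last capitals of IFITM1 run from a GAS into an ISRE core that continues past the start. IRF1 holds a GAS and no ISRE core, and DDX58 holds neither in this window.

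A RefSeq promoter window, from 250 bases before to 50 after a start, was present for 32 of the 41 members. The ISRE core was found in 23 of them (71.9%), where 4.38% of all 27305 genes with a window held it. The GAS was found in 9 (28.1%), against 9.38% of all genes. Of the 11 GAS matches in members, 5 overlapped an ISRE core. A match is a run of letters and not a bound site, and its absence says only that the letters are not in this window. Among tested members, the median log2 fold change of shPUS1 over shControl was -0.44 for the 21 with an ISRE core and -0.44 for the 8 without one. Without shControl replicate 2 these medians were -0.35 and -0.02. The values then ran from -1.14 (DDX60) to 0.54 (MX1) with an ISRE core and from -0.43 (IRF1) to 0.90 (DDX58) without one. IRF7, IFIT2, OAS2, OASL, IFITM2 and MX2 were tested but had no window and are in neither group, with values from -0.87 (OASL) to 0.78 (IFIT2). Whether the groups differ was not tested.

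**Figure D1:**
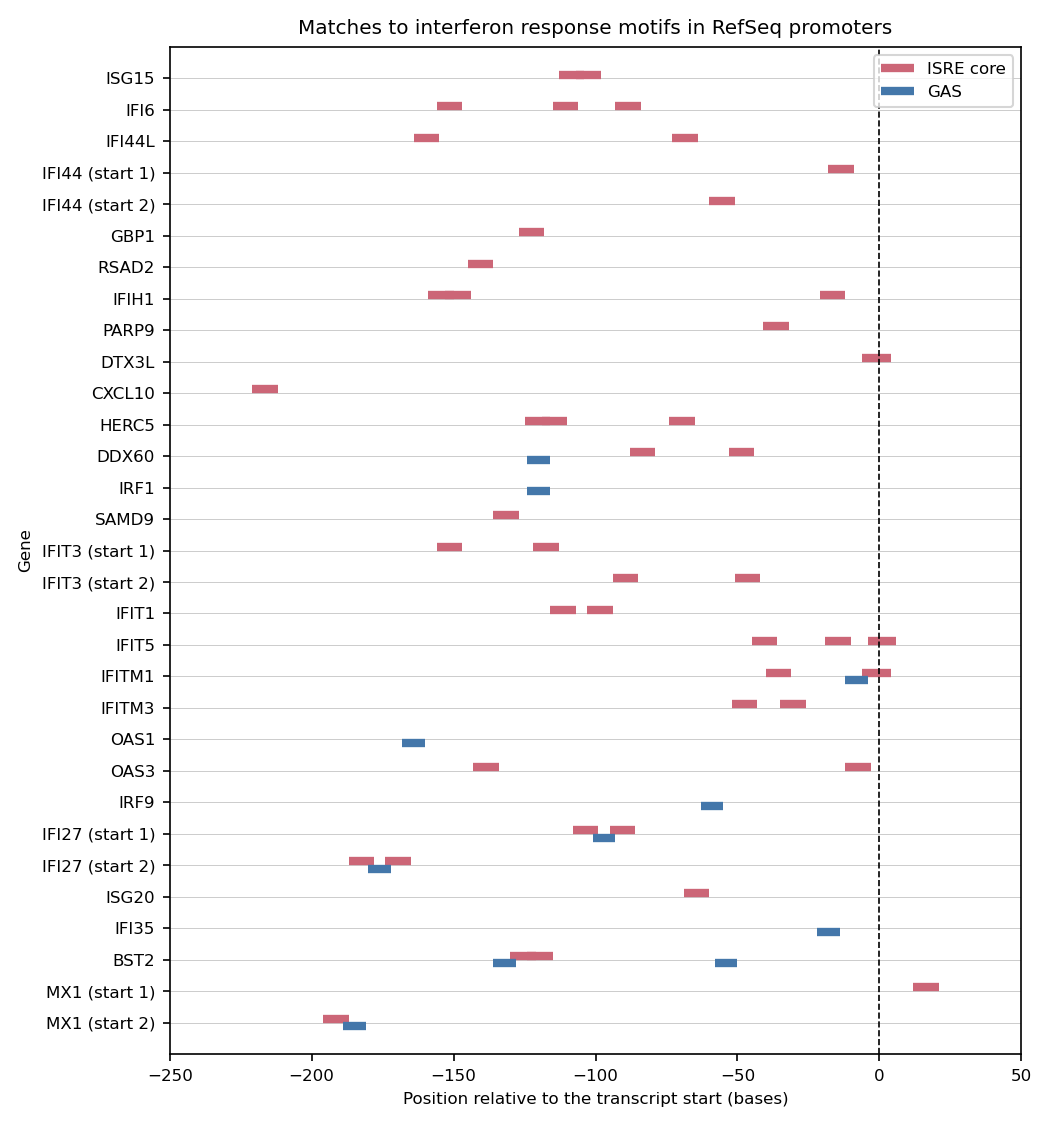
Matches to the ISRE core (red) and the GAS (blue) in the promoters of members that hold one. The x axis gives the position in bases relative to the RefSeq transcript start (dashed line), and each row is one start of a gene. Of 32 members with a window, 23 hold an ISRE core and 9 a GAS.

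The libraries held 14241505 to 19625998 counts. On the log2 scale of CPM, which are counts relative to the depth of the library, Pearson's r across tested genes was 0.987 to 0.991 between shPUS1 libraries and 0.981 between shControl replicates 1 and 3, but 0.951 and 0.952 between shControl replicate 2 and the other two. Values are therefore given with all 6 libraries and without shControl replicate 2. PUS1 itself was at 2.57, 4.66 and 2.18 FPKM (counts scaled to gene length and library total) in shControl replicates 1 to 3 and at 1.13, 0.95 and 0.93 FPKM in shPUS1. All shPUS1 libraries lay below all shControl libraries, with shControl replicate 2 highest. PUS1 had a log2 fold change of -1.64 (SE 0.32, adjusted p = 0.0462, edgeR's quasi-likelihood test). The adjusted p was 0.0905 without shControl replicate 1 and 0.208, 0.253 and 0.192 without shPUS1 replicates 1, 2 and 3. Without shControl replicate 2 it was -1.20 (adjusted p = 0.00311). The markers VIM, CD44, AXL and MSN of a mesenchymal-like breast cancer line were at 74.6 to 498 FPKM in every library. VIM, CD44 and AXL were lower and MSN was higher in shPUS1 without overlap, with log2 fold changes of -0.50, -0.29, -0.60 and 0.20 (adjusted p = 0.0873, 0.169, 0.0623 and 0.295), and without shControl replicate 2 VIM (-0.40, adjusted p = 0.0305) and AXL (-0.48, adjusted p = 0.014) passed. The part of these differences in the members' levels was not tested. The luminal genes ESR1, PGR and FOXA1 were at 0.04 FPKM or less, and the leukocyte genes CD3E at 0, PTPRC at up to 0.02 FPKM and LYZ at up to 0.08 FPKM. CDH1 was at 0 to 0.1 FPKM in shControl and 0.15 to 0.18 FPKM in shPUS1 (log2 fold change 1.47, SE 0.79, adjusted p = 0.28). GATA3 (1.55 to 2.16 FPKM), EPCAM (2.21 to 3.12 FPKM) and CD14 (1.17 to 2.95 FPKM) were detected at low levels in all libraries.

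The members were expressed over a wide range without added interferon. Mean FPKM over the 6 libraries was at least 10 for 8 members, between 1 and 10 for 17 and under 1 for 16. BST2, a membrane protein that tethers budding virions, had the highest mean at 80.2 FPKM, followed by IFITM3 (74.6), IFITM2 (37.6), ISG15 (35.2) and IFITM1 (25.8). At the other end, 6 members had too few counts to be tested. CXCL10, a chemokine that attracts T cells, had 0 counts in every library, where the 3 counts taken as the limit correspond to 0.153 to 0.211 CPM, a limit that covers counting error only. RSAD2 (viperin) had 1 count and OAS1 4 counts over all libraries, and the chemokine CCL5 had 8 counts, all in shControl replicates 1 and 2. USP18 (31 counts) and TRIM22 (35 counts) were detected in every library at 0.04 to 0.27 FPKM.

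With all 6 libraries, few of these genes passed the test, and they did so in both directions. Unless another tool is named, the test is that of edgeR. A gene was called at an adjusted p under 0.05 over all tested genes with a log2 fold change of at least 1 in size. DDX60 was the single member called lower (1 of 35, 2.86%, against 0.481% of all genes tested), and 0 members were called higher, against 0.888% of all genes. With no fold threshold, DDX58 was higher (1 of 35, against 1.74% of all genes) and DDX60 and BST2 were lower (2 of 35, 5.71%, against 0.841%). The unadjusted p was under 0.05 for 14 of the 35 members, against 25.5% of all genes. At the same thresholds DESeq2 called 6 of 34 members lower (17.6%, against 1.8% of all genes with an adjusted p from that tool), namely DDX60, ISG15, IFIT1, IFIT3, OASL and IFI44. It called 0 higher, against 1.87%. With no fold threshold it also called BST2, DDX58, IRF1 and MX1, 10 members in all, against 13% of all genes. The median log2 fold change of the 35 members was -0.44, against -0.03 for all genes tested, and 26 of the 35 were negative, against 52.7% of all genes. The median was -0.28 without shControl replicate 2, with 23 of 35 negative.

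**Figure D2:**
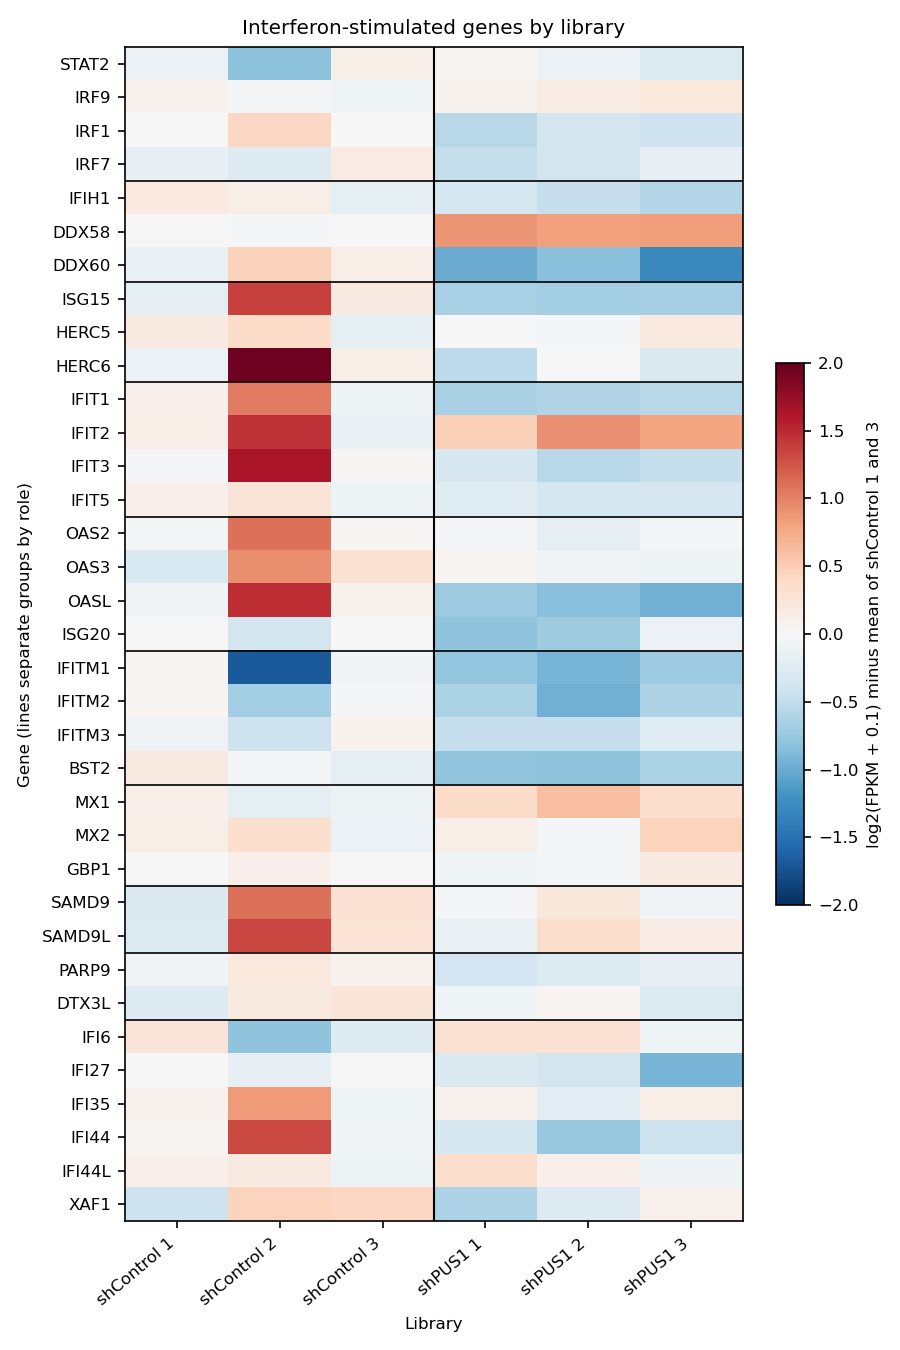
Levels of the 35 tested members in each library, as log2(FPKM + 0.1) minus the mean of shControl replicates 1 and 3 (red higher, blue lower). Rows are grouped by role and the vertical line separates the 3 shControl from the 3 shPUS1 libraries. The shControl 2 column is most strongly red for ISG15, HERC6, IFIT1, IFIT2, IFIT3, the OAS genes, SAMD9, SAMD9L and IFI44. It is most strongly blue for IFITM1, followed by STAT2, IFI6 and IFITM2.

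For many members 1 control library, shControl replicate 2, stood apart from the other controls. Relative to the mean of shControl replicates 1 and 3, the median over the 35 members, in log2 CPM with a prior count of 2, was 0.45 in shControl replicate 2 and -0.25, -0.26 and -0.20 in the shPUS1 libraries. The same median over all genes tested was 0.02 or less in size in each library. For 19 members (54.3%) shControl replicate 2 was the highest of the 6 libraries, against 34.4% of all genes tested, and for 4 (STAT2, IFITM1, MX1 and IFI6, 11.4%) it was the lowest, against 32% of all genes. It lay at least 2-fold above the mean of the other 2 controls in 11 members (31.4%, against 5.09% of all genes). These were ISG15, HERC6, IFIT1, IFIT2, IFIT3, OAS2, OAS3, OASL, SAMD9, SAMD9L and IFI44. It lay at least 2-fold below them in 1 member, IFITM1 (2.86%, against 11.3% of all genes). This library also had the highest total count and the highest PUS1, and the part of either in the members' levels was not tested.

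Leaving out that library raised the number of members past the adjusted p from 3 to 12, with 15130 genes then tested and 2 control libraries remaining. Higher in shPUS1 were DDX58, IFIT2 and MX1 (3 of 35, 8.57%, against 9.8% of all genes). Lower were IRF1, DDX60, ISG15, IFIT1, IFIT3, OASL, IFITM1, IFITM2 and BST2 (9 of 35, 25.7%, against 8.79% of all genes). The share of members higher was thus close to the background and the share lower above it. At the fold threshold, 0 members were higher (against 1.63% of all genes) and DDX60 alone was lower (against 1.66%). In all 6 libraries and without a test, shPUS1 and shControl values did not overlap for 12 members lower in shPUS1 (34.3%, against 17.3% of all genes) and for 3 higher (8.57%, against 18.8%), judged on CPM after scaling. The lower ones were IRF1, IFIH1, DDX60, ISG15, IFIT1, IFIT3, IFIT5, OASL, BST2, PARP9, IFI27 and IFI44, and the higher ones IRF9, DDX58 and MX1.

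**Figure D3:**
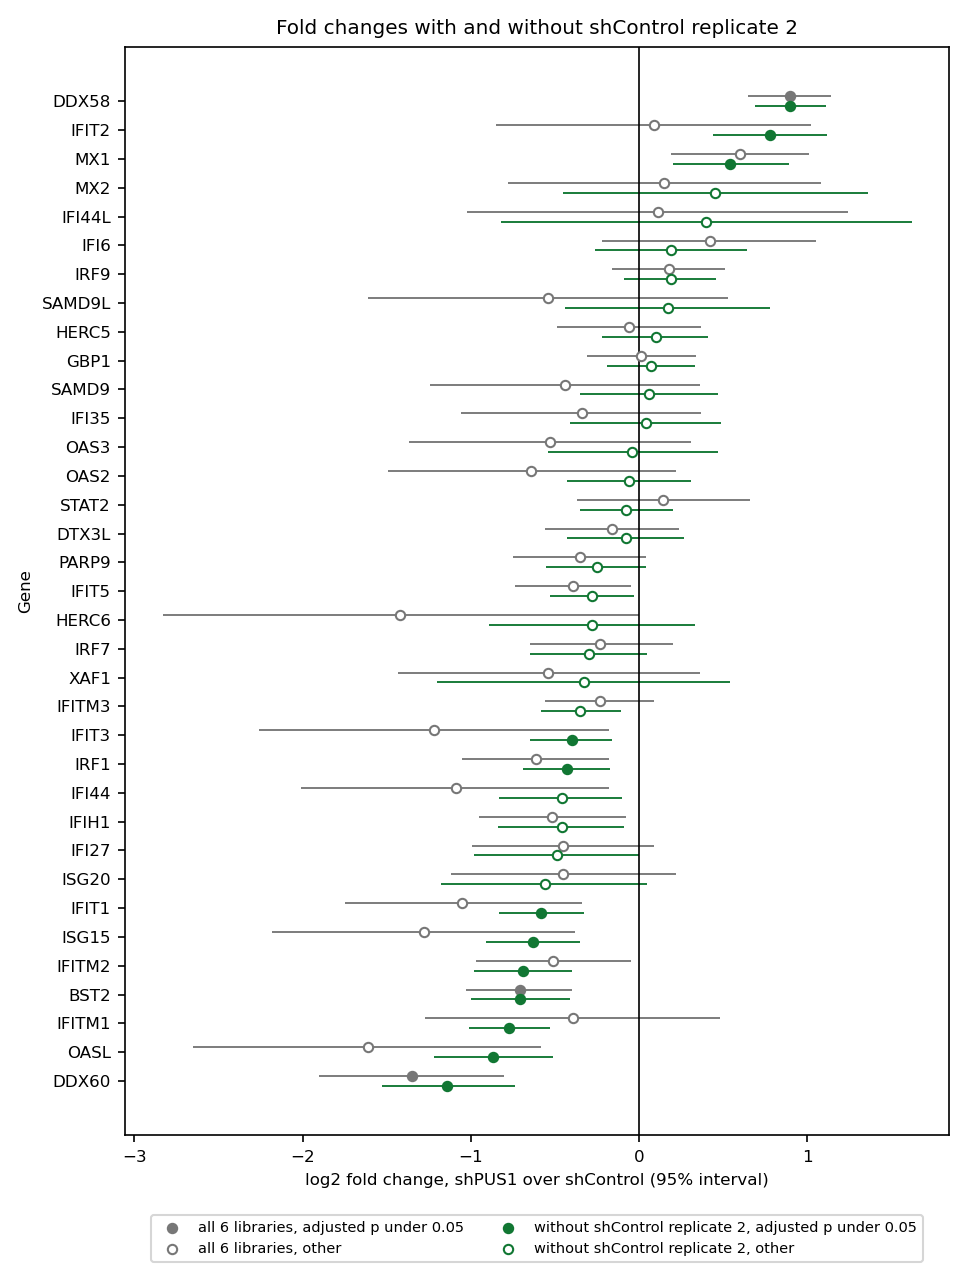
Log2 fold change of shPUS1 over shControl for each tested member with its 95% interval from edgeR, with all 6 libraries (grey) and without shControl replicate 2 (green). Filled points have an adjusted p under 0.05. The intervals of ISG15, IFIT1, IFIT3, OASL and HERC6 narrow and their estimates move toward 0 without that library, while DDX58 and BST2 stay in place.

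The sensors of foreign RNA moved in opposite directions. DDX58 (ENSG00000107201; chromosome 9, 32455302 to 32526208, minus strand) encodes RIG-I, which binds RNA with a 5′ triphosphate. Its level was 5.59, 5.43 and 5.60 FPKM in shControl and 10.4, 9.96 and 10.1 FPKM in shPUS1 replicates 1 to 3. The groups were far apart and each was tight, shControl replicate 2 included. DDX58 rose, with a log2 fold change of 0.90 (1.86-fold, SE 0.11, adjusted p = 0.0214), and without shControl replicate 2 it was also 0.90 (adjusted p = 0.0011). The adjusted p was 0.0681 without shControl replicate 1 and 0.16, 0.18 and 0.149 without shPUS1 replicates 1, 2 and 3, with log2 fold changes of 0.87 to 0.92. An unnamed gene on the same strand (ENSG00000288684) overlaps DDX58 with 36 to 114 counts a library, against 825 to 1964 for DDX58.

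DDX60 (ENSG00000137628; chromosome 4, 168216291 to 168318883, minus strand) encodes a helicase described as a cofactor of RIG-I-like receptors. It was at 0.99, 1.54 and 1.21 FPKM in shControl and at 0.50, 0.57 and 0.39 FPKM in shPUS1. Every knockdown library lay below every control library. DDX60 fell, with a log2 fold change of -1.35 (SE 0.24, adjusted p = 0.0408), and -1.14 (adjusted p = 0.00493) without shControl replicate 2. The adjusted p was 0.0845 and 0.0513 without shControl replicates 1 and 3 and 0.196, 0.222 and 0.189 without shPUS1 replicates 1, 2 and 3. IFIH1, which encodes MDA5, the sensor of long double-stranded RNA, did not pass the test. It was at 2.85, 2.68 and 2.15 FPKM in shControl and 1.91, 1.78 and 1.62 FPKM in shPUS1, without overlap, and its log2 fold change was -0.52 (SE 0.19, adjusted p = 0.147).

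**Figure D4:**
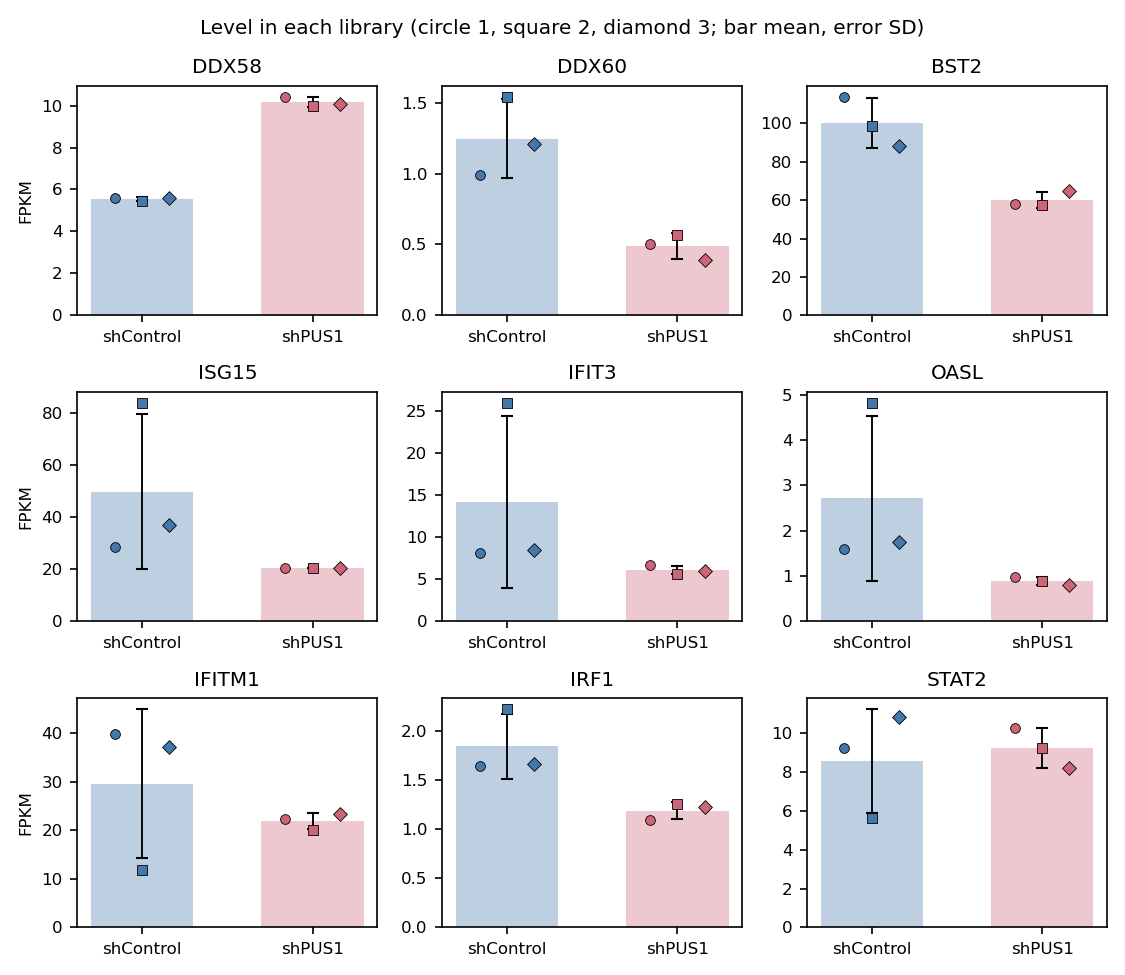
FPKM in each library for 9 members (circle, square and diamond for replicates 1, 2 and 3), with bars for the group mean and error bars for the SD of 3 libraries. DDX58 is higher and DDX60 and BST2 are lower in all shPUS1 libraries. The square of shControl stands far above its group for ISG15, IFIT3 and OASL and below it for IFITM1 and STAT2.

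Among the membrane-acting members, BST2 (tetherin, ENSG00000130303; chromosome 19, 17402939 to 17405630, minus strand) was the most highly expressed. It was at 114, 98.4 and 88.4 FPKM in shControl and at 58.1, 57.6 and 64.9 FPKM in shPUS1. The lowest control library lay above the highest knockdown library. BST2 fell, with a log2 fold change of -0.71 (SE 0.14, adjusted p = 0.0459) and of -0.71 (adjusted p = 0.00922) without shControl replicate 2. The adjusted p was 0.0977 without shControl replicate 1 and 0.235, 0.255 and 0.189 without shPUS1 replicates 1, 2 and 3.

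The IFITM proteins restrict viral fusion at cell membranes, and their genes lie side by side on chromosome 11. IFITM1 was at 39.9, 11.9 and 37.1 FPKM in shControl and 22.4, 20.1 and 23.3 FPKM in shPUS1. IFITM2 was at 52.5, 31.8 and 49.3 FPKM in shControl and 32.8, 26.0 and 33.1 FPKM in shPUS1. In both genes shControl replicate 2 was the low control, below every knockdown library for IFITM1 and within their range for IFITM2. With all libraries the log2 fold changes were -0.39 (SE 0.38, adjusted p = 0.533) for IFITM1 and -0.51 (SE 0.20, adjusted p = 0.163) for IFITM2. Without it they were -0.77 (SE 0.11, adjusted p = 0.0036) and -0.69 (SE 0.13, adjusted p = 0.00957). IFITM3 was at 84.3, 66.6 and 93.1 FPKM in shControl and 64.5, 64.2 and 74.8 FPKM in shPUS1, with overlap and a log2 fold change of -0.23 (SE 0.14, adjusted p = 0.329). These paralogs are alike in sequence. Of the 100-base stretches in their GENCODE release 29 transcripts, 27.5% of IFITM1 and 18.2% of IFITM2 occur in another gene, so reads between IFITM1 and IFITM2 are uncertain.

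In ISG15 and its conjugation system, shControl replicate 2 was the highest library for ISG15, HERC5 and HERC6. ISG15 (ENSG00000187608) is a ubiquitin-like protein that is attached to other proteins, in humans chiefly by the ligase HERC5, and removed by USP18. It was at 28.7, 84.0 and 36.9 FPKM in shControl and at 20.7, 20.4 and 20.5 FPKM in shPUS1. All controls lay above all knockdown libraries, and shControl replicate 2 lay more than 2-fold above the other controls. The log2 fold change was -1.28 (SE 0.39, adjusted p = 0.102) and, without that library, -0.63 (SE 0.12, adjusted p = 0.0116). HERC6 was at 0.52, 2.5 and 0.63 FPKM in shControl and 0.37, 0.57 and 0.45 FPKM in shPUS1, where shControl replicate 2 was the single high library. Its log2 fold change of -1.42 (SE 0.61, adjusted p = 0.195) became -0.28 (SE 0.27, adjusted p = 0.495) without it. HERC5, at 4.83 to 7.08 FPKM, had a log2 fold change of -0.06 (SE 0.18, adjusted p = 0.863).

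The IFIT proteins bind viral RNA or translation factors, and their genes form a cluster on chromosome 10. IFIT1, which binds RNA lacking the methylated cap of host mRNA, was at 8.03, 15.4 and 6.94 FPKM in shControl and 4.72, 4.87 and 5.04 FPKM in shPUS1. IFIT3, its partner protein, was at 8.18, 25.9 and 8.45 FPKM in shControl and 6.67, 5.64 and 6.01 FPKM in shPUS1. Both were lower in every knockdown library, with shControl replicate 2 far above the other controls. Their log2 fold changes were -1.05 (SE 0.31, adjusted p = 0.096) and -1.22 (SE 0.45, adjusted p = 0.149) with all libraries. Without shControl replicate 2 they were -0.58 (SE 0.11, adjusted p = 0.0101) and -0.40 (SE 0.11, adjusted p = 0.0335). IFIT5 was at 10.6, 11.8 and 9.11 FPKM in shControl and 8.25, 7.63 and 7.77 FPKM in shPUS1, without overlap, and did not pass (log2 fold change -0.39, SE 0.15, adjusted p = 0.159). On the opposite strand, LIPA overlaps IFIT1, IFIT2 and IFIT3, and the strand setting of the counting is not given in the sources used here. LIPA had 1861, 1915 and 1538 counts in shControl and 1404, 1363 and 1352 counts in shPUS1 (log2 fold change -0.49, adjusted p = 0.0688). Whether reads of LIPA were assigned to these IFIT genes was not tested.

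IFIT2 went the other way from its neighbours once shControl replicate 2 was left out. It was at 7.23, 18.1 and 6.04 FPKM in shControl and at 9.27, 12.5 and 11.6 FPKM in shPUS1. The knockdown libraries lay above shControl replicates 1 and 3 and below replicate 2. The log2 fold change was 0.09 (SE 0.40, adjusted p = 0.907) with all libraries and 0.78 (SE 0.15, adjusted p = 0.0107) without shControl replicate 2, and it turned negative, at -0.13 and -0.21, without shControl replicates 1 and 3. An unnamed gene (ENSG00000232110) overlaps IFIT2 on the same strand. It had 209, 56 and 200 counts in shControl and 633, 849 and 681 counts in shPUS1, where IFIT2 had 469, 1535 and 372 counts in shControl and 731, 991 and 855 counts in shPUS1. The unnamed gene was higher in each knockdown library than in any control, and lowest in the control library where IFIT2 was highest (log2 fold change 2.02, adjusted p = 0.0653). Whether reads of one were assigned to the other was not tested.

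The OAS proteins sense double-stranded RNA, and ISG20 is an exonuclease of RNA. OASL, a family member without synthetase activity, was at 1.59, 4.82 and 1.75 FPKM in shControl and 0.97, 0.89 and 0.81 FPKM in shPUS1. No knockdown library reached the lowest control, and shControl replicate 2 was the highest library. Its log2 fold change was -1.61 (SE 0.45, adjusted p = 0.0858), the largest in size among the tested members, and -0.87 (SE 0.16, adjusted p = 0.0087) without that library. For OAS2 and OAS3 the log2 fold changes of -0.64 (SE 0.37) and -0.53 (SE 0.36) shrank to -0.06 (SE 0.16) and -0.04 (SE 0.22) without shControl replicate 2, and neither passed in either case. ISG20, at 0.38 to 0.74 FPKM, had a log2 fold change of -0.45 (SE 0.29, adjusted p = 0.359).

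Neither STAT2 nor IRF9 passed the test. STAT2, which carries the activation domain, was at 9.26, 5.61 and 10.8 FPKM in shControl and 10.3, 9.26 and 8.23 FPKM in shPUS1. Its log2 fold change was 0.14 (95% interval -0.37 to 0.66, adjusted p = 0.708) and -0.08 without shControl replicate 2, which was the low library. IRF9, the DNA-binding subunit, was at 4.87, 4.51 and 4.29 FPKM in shControl and 4.83, 5.06 and 5.32 FPKM in shPUS1, with a log2 fold change of 0.18 (95% interval -0.16 to 0.51, adjusted p = 0.466). The groups overlapped for both genes on the FPKM scale, and an unchanged level was not shown for either. Of the stretches of IRF9, 39.1% occur in another annotated gene, so its counts are uncertain.

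IRF1, a transcription factor that responds strongly to interferon gamma, was at 1.64, 2.22 and 1.66 FPKM in shControl and 1.09, 1.25 and 1.22 FPKM in shPUS1. The groups did not overlap. For IRF1 the log2 fold change was -0.61 (SE 0.19, adjusted p = 0.102) and, without shControl replicate 2, -0.43 (SE 0.11, adjusted p = 0.0331). Genes on the opposite strand overlap IRF1, and the strand setting of the counting is not given in the sources used here. The larger, unnamed one (ENSG00000283782) had 103, 291 and 103 counts in shControl and 212, 221 and 335 counts in shPUS1 (log2 fold change 0.58, adjusted p = 0.346). IRF1 had 302, 535 and 290 counts in shControl and 245, 282 and 256 counts in shPUS1. Whether reads of these genes were assigned to IRF1 was not tested. IRF7, the amplifier of interferon alpha transcription, was at 4.87, 4.55 and 6.16 FPKM in shControl and 3.93, 4.24 and 4.90 FPKM in shPUS1. The groups overlapped, and the log2 fold change was -0.23 (SE 0.18, adjusted p = 0.456).

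MX1, a GTPase that traps viral nucleocapsids, was among the few members on the higher side. It was at 0.58, 0.46 and 0.49 FPKM in shControl and 0.72, 0.86 and 0.71 FPKM in shPUS1, without overlap. Its log2 fold change was 0.60 (SE 0.18, adjusted p = 0.0981) and, without shControl replicate 2, 0.54 (SE 0.15, adjusted p = 0.0387). Its relatives MX2 (0.07 to 0.15 FPKM) and GBP1 (4.76 to 5.77 FPKM) had log2 fold changes of 0.15 (SE 0.40) and 0.01 (SE 0.14), neither past the test.

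With edgeR and the filter on low counts, the remaining members did not pass with or without shControl replicate 2. IFI44 was at 7.62, 18.7 and 7.13 FPKM in shControl and 5.89, 4.31 and 5.42 FPKM in shPUS1, again with shControl replicate 2 highest and no overlap between the groups. Its log2 fold change was -1.09 (SE 0.40, adjusted p = 0.142) and -0.46 (SE 0.16, adjusted p = 0.0787) without that library, while with all libraries it passed in DESeq2 (adjusted p = 0.0405) and in edgeR with no filter on low counts (adjusted p = 0.0365). IFI6, a mitochondrial and endoplasmic reticulum protein that opposes apoptosis, was at 13.5, 6.37 and 9.29 FPKM in shControl and 13.8, 13.6 and 10.5 FPKM in shPUS1, with a log2 fold change of 0.42 (SE 0.28, adjusted p = 0.369). The growth-restraining pair SAMD9 and SAMD9L had log2 fold changes of -0.44 (SE 0.35) and -0.54 (SE 0.46), which became 0.06 (SE 0.18) and 0.17 (SE 0.27) without shControl replicate 2. PARP9 and DTX3L, which act as a complex and whose genes overlap at their starts on opposite strands, had log2 fold changes of -0.35 (SE 0.17) and -0.16 (SE 0.17). IFI27, IFI35, IFI44L and XAF1 lay between -0.54 and 0.11 on the same scale.

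Upstream of the members, the interferon genes were silent and the receptors present. Of 22 type I, II and III interferon genes, 21 had 0 counts in every library, with the same limit as for CXCL10, and IFNK had 2 counts in shPUS1 replicate 3. All 6 receptor chains were expressed, and none passed edgeR's test with all libraries and the filter on low counts. IFNAR1 and IFNAR2, the type I receptor, were at 3.70 to 7.58 and 2.82 to 3.43 FPKM, with log2 fold changes of -0.31 (SE 0.28, adjusted p = 0.497) and -0.02 (SE 0.15, adjusted p = 0.955). The IFNAR1 value was 0.09 without shControl replicate 2, its highest library. IFNGR1, the ligand-binding chain for interferon gamma, was at 19.9, 13.5 and 16.5 FPKM in shControl and 12.7, 10.8 and 12.8 FPKM in shPUS1. Its log2 fold change of -0.43 (SE 0.16, adjusted p = 0.155) was -0.55 (adjusted p = 0.0214) without shControl replicate 2. IFNGR2, its signal-transducing partner, had a log2 fold change of 0.38 (SE 0.16, adjusted p = 0.184).

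The type III receptor chain IFNLR1 was at 0.67, 0.31 and 0.53 FPKM in shControl and 1.2, 1.46 and 0.78 FPKM in shPUS1, without overlap. IFNLR1 had a log2 fold change of 1.22 (SE 0.36). Its adjusted p was 0.0944 in edgeR, 0.0429 in edgeR with no filter on low counts and 0.022 in DESeq2. Its call thus depends on the filter and on the tool. Its partner IL10RB had a log2 fold change of -0.03 (SE 0.15, adjusted p = 0.906).

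Among 100 other genes of the pathway, 71 were tested, and 42 of these were themselves interferon-induced genes outside the member list. The median log2 fold change of the 71 was -0.04, against -0.03 for all genes, and 39 of the 71 were negative. The lower median of the members was thus not seen in this list. With all 6 libraries and no fold threshold, TICAM1 and TRIM5 were higher (2 of 71, 2.82%, against 1.74% of all genes) and GBP5 was lower (1 of 71, 1.41%, against 0.841%). TICAM1, the adaptor TRIF of Toll-like receptor 3, was at 6.98, 5.43 and 8.16 FPKM in shControl and 11.3, 12.03 and 12.3 FPKM in shPUS1 (log2 fold change 0.82, SE 0.16, adjusted p = 0.0471). TRIM5, which restricts retroviral capsids, was at 4.71, 2.89 and 4.25 FPKM in shControl and 7.18, 7.27 and 7.09 FPKM in shPUS1 (log2 fold change 0.89, SE 0.18, adjusted p = 0.0481). GBP5, a GTPase induced by interferon gamma, was at 1.29, 0.88 and 1.60 FPKM in shControl and 0.43, 0.35 and 0.54 FPKM in shPUS1 (log2 fold change -1.48, SE 0.28, adjusted p = 0.0443). None of the 3 had overlapping groups. Their adjusted p was 0.0872 to 0.1 without shControl replicate 1 and 0.171 to 0.253 without a shPUS1 replicate. Without shControl replicate 3 it was 0.0605 for TRIM5 and 0.0592 for GBP5.

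Without shControl replicate 2, 5 of the 71 were higher (JAK1, TBK1, TICAM1, TRIM5 and TDRD7, 7.04%, against 9.8% of all genes) and 6 were lower (IFNGR1, PTPN2, APOL1, TNFSF10, GBP5 and LAP3, 8.45%, against 8.79%). TNFSF10, the death ligand TRAIL, was at 14.7, 4.09 and 13.6 FPKM in shControl and 3.84, 3.77 and 4.59 FPKM in shPUS1. Here shControl replicate 2 lay at the level of the knockdown libraries, and the log2 fold change was -1.37 (SE 0.41, adjusted p = 0.1) with it and -1.76 (SE 0.12, adjusted p = 0.00026) without it. LAP3, an aminopeptidase, was at 18.9, 32.6 and 16.8 FPKM in shControl and 12, 11.3 and 11.8 FPKM in shPUS1 (log2 fold change -0.95, SE 0.26, adjusted p = 0.085, and -0.57, adjusted p = 0.00851, without it). TDRD7 (log2 fold change 0.55, SE 0.12, adjusted p = 0.0577) and APOL1 (-0.70, SE 0.21, adjusted p = 0.099) also passed without that library, at 0.01 and 0.0467. That control library thus stood above the others for some interferon-induced genes and below them for others.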

How the data were processed

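MDA-MB-231 cells in RPMI-1640 with fetal bovine serum were sequenced in 3 shControl and 3 shPUS1 libraries, grouped by their titles. The authors aligned paired-end reads with HISAT2 and counted them with HTSeq 0.6.1, per the submitters' processing notes. The genome build, annotation and strand setting are not given in the sources used here, nor is the step that leaves 22.4 to 24% of nonzero values not whole (tolerance 0.001). The deposited table holds estimated counts per gene, not normalized, and FPKM made by the authors from them. Its columns of functional annotation were not used.

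Expected counts were rounded, filtered with filterByExpr and scaled by TMM (factors 0.973 to 1.03), and edgeR 4.0.16 (R 4.3.3) fitted its quasi-likelihood model to all genes, with Benjamini-Hochberg adjustment. Standard errors are the log2 fold change divided by the root of F. The common biological coefficient of variation was 0.22. The test was run on simulated data first. Alternatives used DESeq2 1.42.0, limma 3.58.1 on log2(FPKM + 1) and log2(FPKM + 0.1) over genes whose mean FPKM reached 1, and in edgeR DESeq2 size factors, no filter, a replicate block, each library left out and no fold threshold. Python 3.11.15 with pandas 2.3.3, numpy 2.4.6, scipy 1.17.1 and matplotlib 3.10.9 was used for the rest.

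The members and the lists were chosen with earlier results of these data known. Values in every library are given for members past an adjusted p of 0.05 with all libraries or without shControl replicate 2, the 12 with the highest mean FPKM, the 8 with the largest change and the 4 transducers, and for pathway genes for the receptors and up to 8 with the smallest p. Single items covered by the rule are not reported here. IFIH1 was added after its values were seen. The depth of 14241505 to 19625998 counts limits low genes, and count limits cover counting error only. A permutation test of 3 against 3 libraries cannot go below p = 0.1.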

Additional observations from a re-analysis of the deposited data

How the results depend on the processing

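The comparison rests on 3 libraries a group, and calls moved with single libraries and tools. Members called lower at the fold threshold numbered 1 with edgeR (2.86%, against 0.481% of all genes) and 6 with DESeq2 (17.6%, against 1.8%). Of the latter, ISG15, IFIT1, IFIT3, OASL and IFI44 had shControl replicate 2 at least 2-fold above the other controls. Without that library their edgeR log2 fold changes were -0.63, -0.58, -0.40, -0.87 and -0.46, under the fold threshold in size. There were 6 members called lower with no filter on low counts and 0 with limma at either pseudocount, shares of all genes not given here. In limma 25 members were tested and DDX60, under the minimum mean FPKM, was not. Leaving out 1 library gave 0 to 1 called lower. With no fold threshold the count was 2, or 9 without shControl replicate 2 as well, an alternative chosen after seeing the data. Members called higher numbered 0 under every tool and library left out, 1 with no fold threshold and 3 without shControl replicate 2 as well. Members past the adjusted p alone numbered 3 (against 2.58% of all genes), 8 with no filter (4.75%), 10 with DESeq2 (13%), 2 with limma (3.37% and 2.17% at pseudocounts of 1 and 0.1), 2 without shControl replicate 3 (3.14%) and 12 without shControl replicate 2 (18.6%). They numbered 0 without shControl replicate 1 or any shPUS1 library, where 0 to 0.0726% of all genes passed and where 7 to 14 members and 14 to 24.8% of all genes had an unadjusted p under 0.05 (edgeR). Pathway genes past both thresholds numbered 1 (lower, 1.41%, against 0.481% of all genes). With DESeq2 they numbered 3, with 1 higher (1.45%, against 1.87%) and 2 lower (2.9%, against 1.8%). They numbered 0 to 2 with 1 library left out, the 2 being lower without shControl replicate 2 (2.82%, against 1.66%). There were 3 with no filter and 0 with limma (which did not test GBP5 and IFNLR1, under its minimum mean FPKM), where the share of all genes at both thresholds is not given here. Past the adjusted p with no fold threshold, pathway genes numbered 3. The median log2 fold change of the members was -0.44, -0.25 with limma on log2(FPKM + 1) and -0.32 on log2(FPKM + 0.1), both over the 25 members tested there, whose edgeR median was -0.39, and -0.44 to -0.28 with 1 library left out. PUS1 stayed negative, at -1.0 (adjusted p = 0.0544) and -1.48 (adjusted p = 0.0514) with limma and -1.86 to -1.20 with 1 library left out.

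The sign changed for genes with no call. STAT2 lay between -0.08 (without shControl replicate 2) and 0.32 with 1 library left out, IFNAR1 between -0.53 and 0.09 (without shControl replicate 2), and IFIT2 between -0.21 (without shControl replicate 3, and -0.13 without replicate 1) and 0.78. IFNAR2 lay between -0.07 and 0.03 (without shControl replicate 3, and 0.02 without shPUS1 replicate 1), and IL10RB between -0.11 and 0.08 (without shControl replicate 1, and 0.00 without shPUS1 replicate 2). The cause was not tested. With a replicate block in edgeR 0 members and 0 pathway genes were called, where 12 and 13, and 19.1% of all genes, had an unadjusted p under 0.05 and 0.122% of all genes passed, and PUS1 was at -1.55 (adjusted p = 0.0969). Same-numbered libraries did not deviate together, with residual correlations of -0.053, -0.026 and -0.19. Residuals are deviations from the mean of 3 libraries and are tied to each other, so these values cannot settle whether libraries were paired by number. Whether same-numbered libraries were prepared together is not given in the sources used here.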
